A study of Mus musculus with 12 samples.

Results

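KC1 and KC3 are mouse lung adenocarcinoma cell lines in which the transcript of the hormone prolactin was abundant, and KC2 and KC4 are sister lines in which it was scarce. Genes that followed this split of the 4 lines were collected: a gene was a member when the KC1 and KC3 line means both lay above, or both below, the KC2 and KC4 line means by at least 1 log2 unit, which is a factor of 2. This distance between the nearest lines of the 2 sides is called the gap. Of 18193 genes measured, 86 (0.473%) were members: 41 (0.225%) higher in KC1 and KC3 and 45 (0.247%) lower. These percentages are the outcome of the rule, and the split was itself made on a measured transcript, so levels and gaps across it are described without a test. A gap above 0 of any size was present in 1891 genes (10.4%) in the higher and 3165 (17.4%) in the lower direction.

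Each line was measured on 3 one-colour expression arrays of total RNA, labelled as biological replicates, which makes 12 arrays. All 4 lines have the genotype K-rasLA1/+; Cdkn1a-/- on a background given as 127s: they carry an activatable K-ras allele and lack both copies of Cdkn1a, which encodes p21, a brake on the cell cycle. They were grown in RPMI medium with 10% FBS, with no treatment. KC1, KC2 and KC3 are labelled highly metastatic and KC4 poorly metastatic, so the high-prolactin side holds 2 highly metastatic lines and the low-prolactin side holds 1 of each class. The labels mention 6 primary tumours from 4 mice and do not tie lines to mice. With 2 lines on each side, arrays show how well a line was measured, not how lines of either kind vary.

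Prolactin is a hormone of the anterior pituitary, known for milk production; it signals through a cytokine receptor, the kinase JAK2 and the factor STAT5. In the mouse a large family of prolactin-related genes is used mainly by the placenta. Secreted factors of other families that appear among the members, such as BMP and TGF-beta ligands and chemokines, act on the cells themselves or on neighbouring cells and matrix. ID proteins, which block helix-loop-helix factors, are common target genes of BMP signals.

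Signal is the linear brightness of a probe set, scaled by the authors so that arrays share an average; median signals ran from 94.5 to 128. Signals under 16 were set to 16 (a log2 value of 4) before logs were taken, and 15.3% to 19.9% of the probe sets of an array lay at or under that floor. Arrays of 1 line had a typical SD of 0.38 log2 units (median over genes) for genes with a mean under 6, 0.28 between 6 and 8 and 0.10 at 8 or more. Epithelial markers were bright in all lines, with Krt8 at 14.01 to 14.17 and Epcam at 12.63 to 13.74 log2, whereas the lung lineage factor Nkx2-1 lay at 4.18 to 5.41 and Napsa at the floor on every array. Nkx2-1 and Napsa do not stand for the lung lineage list, where 15 of 32 genes measured had a line mean of 8 or more in some line. Of the marker lists for other cell types, 12 fibroblast, 10 lymphocyte and 10 endothelial genes had line means of at most 7.59, 8.21 and 7.82, while 13 myeloid and 10 muscle genes reached 9.85 and 10.29; none of these lists held a member. Cdkn1a, deleted by genotype, gave signals of 7307 to 8209 in KC1, 6135 to 7025 in KC3, 5460 to 6448 in KC2 and 3875 to 4831 in KC4; where its probes lie relative to the deleted part was not used here, so this signal checks no label. KC4 stood apart on the 5' control for 18S ribosomal RNA, with a mean signal of 3305 against 414 to 605 in the other lines; its part in the results was not tested.

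Prolactin itself had the largest gap of all members. Its gene Prl gave signals of 16429, 15619 and 15876 in KC1, 4196, 4240 and 4465 in KC3, 192, 20.2 and 71.4 in KC2 and 257, 302 and 186 in KC4. The sides did not overlap on any array, and KC3, the dimmer of the high lines, lay 4.14 log2 units (17.7-fold) above KC4, the brighter of the low lines. In bulk RNA, fewer cells carrying a transcript and less of it per cell cannot be told apart, here and for every member below. Prl lies on chromosome 13. The 250 bases before its RefSeq start, at chr13:27057320-27057569 on the plus strand of GRCm38.p6, are shown because this gene defines the split. Capitals mark matches to the TATA box (TATAAA) and to a motif of the pituitary factor POU1F1 (TATNCAT), searched on both strands.
Prl: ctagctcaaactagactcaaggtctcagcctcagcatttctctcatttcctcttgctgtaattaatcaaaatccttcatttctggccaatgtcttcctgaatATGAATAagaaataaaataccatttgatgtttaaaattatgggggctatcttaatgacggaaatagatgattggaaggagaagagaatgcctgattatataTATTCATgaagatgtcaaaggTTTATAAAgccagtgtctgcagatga
The TATA matches lie at -26 to -21 and -24 to -19, and the POU1F1 motif at -148 to -142 and -47 to -41. Of 32851 RefSeq windows of this length, 12.4% held the TATA box and 7.92% the POU1F1 motif.

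The rest of the family did not go with it. The other 18 genes of the prolactin and growth hormone list that were measured had line means from 4.00 to 6.82 log2, none with a gap of 1. Gh, growth hormone, read 73.9 to 92.6 in KC1 and KC3 and 95.5 to 115 in KC2 and KC4, a gap of only 0.19 in the lower direction. Prl2a1 read 64.2 to 119 in KC1 and KC3 and 76.0 to 144 in KC2 and KC4, and these ranges overlap. Prl5a1 read 45.9, 37.2 and 53.8 in KC1 and 7.23, 19.1 and 14.7 in KC3, with 2 of the KC3 arrays under the floor of 16 and all 12 arrays under the alternative floor of 64, so no difference is given for it. The lowest were Prl4a1, Prl7a2 and Prl8a6, at or under the floor on every array.

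No gene of the prolactin receptor pathway was a member. Of 27 genes measured for growth hormone receptor, JAK2, STAT5 and their feedback, 4 (14.8%, beside 10.4% of all genes) had a gap above 0 in the higher and 7 (25.9%, beside 17.4%) in the lower direction. Jak2 had line means of 11.01, 11.20, 11.31 and 11.58 in KC1, KC3, KC2 and KC4, and Stat5b 7.89, 8.97, 8.29 and 8.77. The STAT5 target Cish read 9.53, 9.19, 9.56 and 9.31, with the sides overlapping. Socs2, another STAT5 target, was at 10.15 and 10.35 in KC1 and KC3 against 10.04 and 11.77. Csn3, the milk protein kappa-casein, showed the largest gap of the list in the higher direction, 0.55. The largest in the lower direction was that of Sh2b2, -0.74. Csn1s1 and Csn2, the other casein genes on the list, had gaps of -0.24 and -0.26. The prolactin receptor was not analysed here. A list of pituitary genes held regulators of prolactin and the hormone genes Cga, Pomc and Tshb. Of its 15 genes measured, 1 had a gap above 0 in the higher direction (10.4% of all genes did), Ets1 with 0.11. In the lower direction 3 had one (17.4% of all genes did), Lhx4 (-0.28), Drd2 (-0.28) and Trhr (-0.24). Pou1f1, the gene of the factor POU1F1, was not among the 15 measured.

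**Figure D1:**
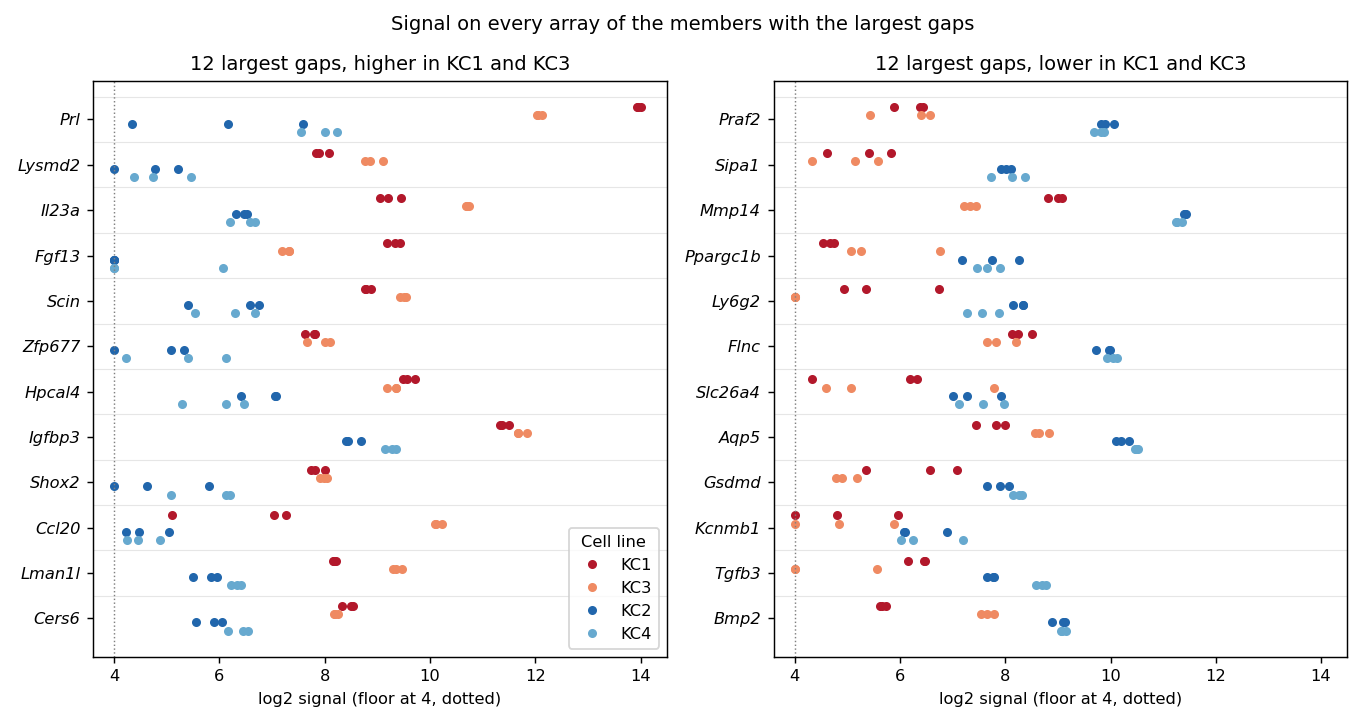
Log2 signal on each of the 12 arrays for the 12 members with the largest gap in each direction; each dot is 1 array, coloured by line, and the dotted line is the floor of 4. Prl spans the widest range, and in Ccl20, Mmp14 and Bmp2 the KC1 and KC3 dots lie apart from each other while still on the same side of KC2 and KC4.

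Genes of the cytokine and chemokine list made up 3 of the 41 higher members: Il23a, Ccl20 and Csf3. These were 3 of 39 list genes measured (7.69%, beside 0.225% of all genes), and no gene of the list was a lower member. Il23a, the p19 subunit of interleukin-23, gave 696, 586 and 531 in KC1, 1651, 1669 and 1699 in KC3, 79.4, 91.5 and 89.0 in KC2 and 73.7, 102 and 96.2 in KC4. KC2 and KC4 lay close together and the gap was 2.74 (6.70-fold). Csf3, the granulocyte growth factor G-CSF, read 765, 725 and 597 in KC1, 1487, 1195 and 1070 in KC3, 262, 281 and 310 in KC2 and 427, 292 and 253 in KC4, with a gap of 1.13. Ccl20, a chemokine for cells with the receptor CCR6, was at 1112, 1205 and 1086 in KC3 but only 131, 34.4 and 153 in KC1, against 18.8 to 33.0 in KC2 and KC4. Its gap of 1.88 therefore rests on a dim KC1. Chosen after their values were seen, Cxcl1 (gap 0.58) and Lif (gap 0.34) had the next larger gaps of the list, each also brightest in KC3. In the other direction Cx3cl1 had a gap of -0.58 and Ccl2 one of -0.56. Cxcl17, a chemokine gene not on the list, was a lower member with a gap of -1.28. It was dim, and its signals of 27.2 to 76.0 in KC1 and KC3 and 59.3 to 210 in KC2 and KC4 overlapped.

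The promoter of Ccl20, at chr1:83116516-83116765 on the plus strand of GRCm38.p6, is shown for its NF-kappaB match, a factor known to drive this gene; capitals mark that match at -80 to -71 and a CACCTG at -178 to -173.
Ccl20: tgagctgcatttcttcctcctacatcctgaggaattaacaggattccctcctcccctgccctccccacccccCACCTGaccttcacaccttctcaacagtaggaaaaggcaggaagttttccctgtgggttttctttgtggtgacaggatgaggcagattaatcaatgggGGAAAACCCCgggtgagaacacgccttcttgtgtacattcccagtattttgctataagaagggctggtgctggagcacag
An NF-kappaB match was found in 7.25% of all windows, in 12.5% of 40 windows of higher members and in 10.8% of 37 windows of lower members.

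Growth factor binding and FGF family genes each gave 1 higher member. Igfbp3, which binds insulin-like growth factors, read 2896, 2644 and 2575 in KC1, 3277, 3671 and 3268 in KC3, 347, 414 and 341 in KC2 and 623, 658 and 563 in KC4. It was bright on both sides, its gap was 2.14 (4.40-fold), and its other probe set had a gap of 2.77. Fgf13, an intracellular member of the FGF family that acts on sodium channels, gave 643, 580 and 688 in KC1, 159, 159 and 145 in KC3 and 7.02 to 10.8 in KC2. KC4 had 12.2, 12.3 and 66.8, so 5 of the 6 low arrays were at or under the floor and the gap of 2.58 is tied to where the floor was set. The other Fgf13 probe set was dim, with line means of at most 5.71 and the sides overlapping.

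The early response factors Egr1 and Egr3, zinc finger proteins induced by RAS and MAP kinase signals, were the members of the MAPK output list, 2 of 29 genes measured (6.90%, beside 0.225% of all genes). Egr1 read 3613, 3518 and 3555 in KC1, 5637, 5159 and 4958 in KC3, 1119, 1155 and 1134 in KC2 and 1737, 1490 and 1760 in KC4. KC3 was brightest, no array of one side overlapped the other, and the gap was 1.10. Egr3 gave 525, 591 and 610 in KC1, 648, 578 and 607 in KC3, 174, 129 and 149 in KC2 and 262, 275 and 224 in KC4, a gap of 1.19, but its other probe set had line means of 7.38, 7.19, 7.87 and 7.56 in KC1, KC3, KC2 and KC4, the opposite order. Of the list's genes 9 (31.0%, beside 10.4% of all genes) had a gap above 0 in the higher and 3 (10.3%, beside 17.4%) in the lower direction; among the former, chosen after their values were seen, were Dusp5, a phosphatase that acts on ERK (0.70), Egr2 (0.61) and Fosl1 (0.42). The GCGNGGGCG motif of EGR factors was found in 4.70% of all windows, in 12.5% of the higher and 5.41% of the lower members' windows.

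Several bright higher members belong to none of these groups. Psrc1, a microtubule-associated protein of the mitotic spindle, had nearly equal lines within each side: 4852, 4653 and 4407 in KC1, 4777, 4971 and 4665 in KC3, 1484, 1610 and 1544 in KC2 and 1637, 1546 and 1609 in KC4, a gap of 1.54. Ctsh, the lysosomal protease cathepsin H, read 2224, 2074 and 2035 in KC1, 2532, 2414 and 2310 in KC3, 492, 449 and 483 in KC2 and 1010, 1008 and 990 in KC4, a gap of 1.07. Aqp8, a water channel, was high in 3 lines and low in KC4: 5172, 4835 and 5255 in KC1, 6869, 7094 and 7023 in KC3, 2448, 2127 and 2160 in KC2 and 153, 207 and 203 in KC4. Its membership rests on KC2, since KC4 lay far below. Ptp4a3 encodes a tyrosine phosphatase, also called PRL-3 after regenerating liver and unrelated to prolactin. It gave 2653, 2546 and 2639 in KC1, 1256, 1236 and 1186 in KC3, 141, 185 and 169 in KC2 and 574, 496 and 504 in KC4, so that all 4 lines were at different levels. Its other probe set did not follow, with line means of 7.15, 6.98, 7.17 and 7.23 log2 in KC1, KC3, KC2 and KC4.

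Among members of middle brightness, Lysmd2 had the second largest gap in this direction, 3.08, with 228 to 271 in KC1, 436 to 548 in KC3 and 13.7 to 44.1 in KC2 and KC4. Scin, an actin-severing protein, had a gap of 2.57, with 436 to 749 in the high lines and 42.3 to 107 in the low lines. Hpcal4, a calcium sensor, had a gap of 2.45, with 583 to 837 against 39.0 to 135. Zfp677, a zinc finger gene, and Shox2, a homeobox factor, had gaps of 2.49 and 2.05 with no high array under 197. Lman1l and Cers6, a lectin-like gene and a ceramide synthase, had gaps of 1.86 and 1.83. Sh2d5 was at 671 to 975 in the high lines, 38.0 to 64.2 in KC2 and 199 to 317 in KC4, with a gap of 1.52. Pde4b, which degrades cyclic AMP, had a gap of 1.09, and 2.23 and 1.83 on 2 of its 5 other probe sets. Lor, the cornified envelope protein loricrin, had a gap of 1.00 and one of 3.29 on another probe set. On its remaining probe set the sides overlapped. Rcor2, Ppp1r26, Bcl2l15, the potassium channel gene Kcnq1, Lnx1, Nipal2 and Ica1 complete the 27 higher members that were brighter than nearly all olfactory receptor genes.

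In the lower direction Praf2, a membrane protein of the early secretory pathway, came first. It read 59.0, 86.2 and 83.3 in KC1, 43.2, 84.8 and 95.7 in KC3, 1077, 955 and 905 in KC2 and 904, 934 and 823 in KC4. Lines of the same side lay close together, and the gap was 3.56 (11.8-fold); the second probe set had a gap of 4.89. Mmp14, a membrane-bound collagenase, gave 538, 513 and 452 in KC1, 148, 175 and 161 in KC3, 2677, 2784 and 2745 in KC2 and 2459, 2430 and 2633 in KC4. Its gap was 2.33 (5.01-fold), with gaps of 2.35 and 2.05 on its other 2 probe sets. The windows before both genes are shown to set these 2 leading lower members beside Prl: chrX:7728321-7728570 and chr14:54431348-54431597, both on the plus strand of GRCm38.p6, with capitals on GC boxes (GGGCGG on either strand) and on the POU1F1 and EGR motifs given above.
Praf2: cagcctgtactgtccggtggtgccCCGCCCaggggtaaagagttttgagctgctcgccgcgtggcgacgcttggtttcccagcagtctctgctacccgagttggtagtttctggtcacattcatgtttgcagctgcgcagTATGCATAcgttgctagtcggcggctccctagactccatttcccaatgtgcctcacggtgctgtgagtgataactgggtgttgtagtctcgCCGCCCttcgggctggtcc
Mmp14: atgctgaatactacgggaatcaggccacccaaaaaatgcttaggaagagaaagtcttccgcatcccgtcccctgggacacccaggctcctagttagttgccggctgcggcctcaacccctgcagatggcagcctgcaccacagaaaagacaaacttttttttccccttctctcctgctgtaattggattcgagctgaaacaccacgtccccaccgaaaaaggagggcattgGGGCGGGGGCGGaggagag
Neither window holds the TATA box. A GC box was found in 32.7% of all windows, 47.5% of the higher and 48.6% of the lower members' windows. In Mmp14 the EGR motif at -17 to -9 overlaps both GC boxes.

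Of the bright lower members, Sparc, Bgn and Fscn1, were lowest by far in KC3. Sparc, a collagen-binding matrix protein, read 1206, 1231 and 1307 in KC1, 86.3, 80.8 and 84.8 in KC3, 2869, 3180 and 2850 in KC2 and 2507, 2571 and 2560 in KC4. Bgn, the proteoglycan biglycan, gave 5099, 4917 and 4923 in KC1, 137, 118 and 175 in KC3, 9364, 11564 and 10601 in KC2 and 11491, 9620 and 11107 in KC4. Fscn1, which bundles actin, had 3152, 3704 and 3622 in KC1, 510, 448 and 564 in KC3, 7381, 6917 and 7467 in KC2 and 11718, 11569 and 12196 in KC4. For these 3 genes the gap (1.03, 1.07 and 1.06) was set by KC1, and KC3 lay several log2 units further down. Flnc, the actin crosslinker filamin C, differed from them: 304, 281 and 364 in KC1 and 226, 202 and 296 in KC3 against 845 to 1110 in KC2 and KC4, a gap of 1.60 and one of 2.68 on its other probe set. Crip1, a LIM domain protein, read 2641, 2556 and 2395 in KC1, 1226, 1248 and 1131 in KC3, 8677, 11038 and 9555 in KC2 and 6230, 5600 and 5852 in KC4, with a gap of 1.22. Cdc42ep2, an effector of the small GTPase CDC42, had a gap of 1.10. Of 26 mesenchymal genes measured, Sparc alone was a member; Vim, vimentin, read 11.93, 9.53, 6.74 and 13.65 log2 in KC1, KC3, KC2 and KC4 and did not follow the split.

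The TGF-beta and BMP list gave 4 lower members of 45 genes measured (8.89%, beside 0.247% of all genes) and no higher one. Among the ligands, Bmp2 read 49.2, 53 and 50.9 in KC1, 222, 202 and 187 in KC3, 563, 474 and 545 in KC2 and 536, 569 and 539 in KC4, a gap of 1.37. Tgfb3 gave 87.9, 89.2 and 71.0 in KC1, 47.6, 8.6 and 14.3 in KC3, 218, 201 and 221 in KC2 and 418, 436 and 386 in KC4, a gap of 1.38. KC1 held the lower Bmp2 signal and KC3 the lower Tgfb3 signal. Id1, an inhibitor of helix-loop-helix factors, read 1744, 1501 and 1532 in KC1, 1611, 1599 and 1370 in KC3, 3785, 4523 and 4031 in KC2 and 6947, 5928 and 6585 in KC4. Id2, of the same family, gave 1661, 1798 and 1619 in KC1, 1909, 1643 and 1848 in KC3, 6144, 4807 and 5940 in KC2 and 3661, 4203 and 3716 in KC4. KC1 and KC3 lay close together for both ID genes, whose gaps were 1.37 and 1.10; the other 2 probe sets of Id2 had gaps of 0.02 and 0.61.

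The remainder of that list was mixed. In all, 13 of the 45 genes had a gap above 0 in the lower direction (28.9%, beside 17.4% of all genes) and 5 in the higher direction (11.1%, beside 10.4%). The list's median difference between the sides was -0.05, and -0.03 over all genes. Chosen after their values were seen, Smad6, an inhibitor of BMP signals, had a gap of -0.70, with line means of 5.90 and 7.15 in KC1 and KC3 and 7.85 and 9.35 in KC2 and KC4. Tgfb1 had the opposite direction, with 10.57 and 10.58 against 9.62 and 9.41, a gap of 0.95. Bmp8a was a lower member too, though not on the list, and its signals of 7.68 to 46.7 in KC1 and KC3 and 24.1 to 87.4 in KC2 and KC4 overlapped.

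Further lower members above the olfactory receptor range had other roles. Aqp5, a water channel of lung and gland epithelium, read 226, 255 and 175 in KC1, 457, 399 and 378 in KC3, 1181, 1311 and 1101 in KC2 and 1470, 1418 and 1432 in KC4, a gap of 1.54. Aqp5 and Id2 were the lower members of the lung lineage list, 2 of 32 genes measured, beside 0.247% of all genes. Sipa1, which switches off the GTPase RAP1, had a gap of 2.72, with 20.2 to 56.7 in KC1 and KC3 against 211 to 332. Ppargc1b, a coactivator for mitochondrial genes, and Ly6g2 had gaps of 1.98 and 1.89. Gsdmd, whose cleaved form makes pores in the cell membrane, had a gap of 1.53, with 268, 201 and 240 in KC2 and 308, 285 and 319 in KC4 against 27.6 to 136 in KC1 and KC3. Ampd3, an AMP deaminase, was at 987 to 1123 in KC2 and KC4, 418 to 540 in KC1 and 7.23 to 69.0 in KC3. Slc26a4, the anion exchanger pendrin, had a gap of 1.59, but its arrays overlapped: 1 array of KC3 read 220 while the others of KC1 and KC3 read 20.0 to 79.7. The potassium channel gene Kcnk6 and Mogat2, an enzyme of triglyceride synthesis, complete the 21.

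The members differed widely in brightness. Olfactory receptor genes, which are known from nasal epithelium, served as a yardstick chosen after seeing the data: the 95th percentile of 39 of them was 7.38 log2, a signal of 166. Brightness was read on the side where a gene is high, from the arrays the rule used, and different probes are set side by side here, so the counts that follow are a description. Among the higher members 27 had both high lines above it, and in all 27 no array of one side overlapped the other side; of the 14 at or under it, 10 had no overlap. Among the lower members 20 of 21 above it had no overlap, and 9 of 24 at or under it. The 24 dim lower members had gaps of 1.01 to 1.43 and include 2 olfactory receptor genes themselves, Olfr140 and Olfr288. Others in this dim set are Kcnmb1, Rgs7, Cxcl17, Cyp2b13, Tmem25, the immune genes Ctla4, Aire and Alox5ap, Hyal3, Hsd3b3, Avil, Sox7, Prph, Fam89a, Rasal3, Bmp8a, Kctd8 and the clones 4930504C09Rik, C430002N11Rik, 1700122O11Rik, 1700092E19Rik and 4930404N11Rik. The dim higher members are Fgf13, Ccl20, Sel1l3, Trpc1, Tchh, Myb, Inka2, Dact2, Lancl3, Cfap57, BC030500, Gimap3, Atp11a and Rps6ka6. Myb among the higher and Rgs7, Tmem25 and Aire among the lower members had all 6 arrays of the dimmer side at the floor, so no true gap can be given for them.

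**Figure D2:**
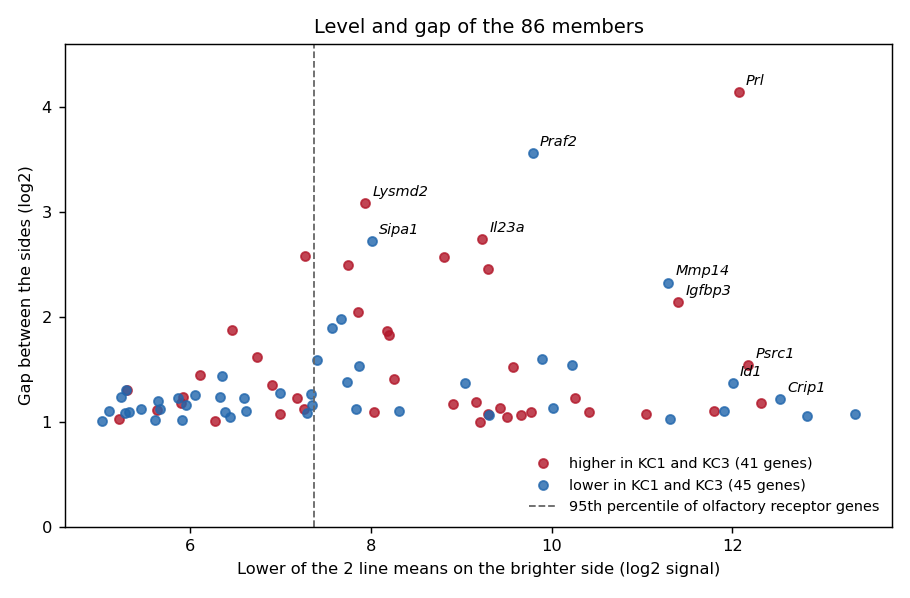
Gap between the sides (log2) against the lower line mean on the brighter side (log2 signal) for the 41 higher (red) and 45 lower (blue) members; the dashed line is the 95th percentile of 39 olfactory receptor genes at 7.38. Left of that line lie 14 higher and 24 lower members, most of them with gaps close to 1.

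The rule was next applied to 2 replicates of every line and the gap read on the arrays of the replicate left out, which the choice had not used. Of the genes chosen as higher, 23 of 45, 27 of 48 and 26 of 42 had a gap of at least 1 on the arrays of replicates 1, 2 and 3, which is 56.3% pooled. Of those chosen as lower, 15 of 54, 16 of 46 and 20 of 73 did, 29.5% pooled. The median gap on the left-out arrays was 1.00, 1.09 and 1.06 for higher genes and 0.45, 0.44 and 0.00 for lower genes. A gap above 0 was kept by 37, 37 and 38 higher and by 34, 27 and 35 lower genes. When only the brighter 50% of genes entered, the pooled shares with a gap of at least 1 were 74.6% and 73.7%. These arrays are of the same 4 lines, so the shares speak of array spread, not of other lines.

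**Figure D3:**
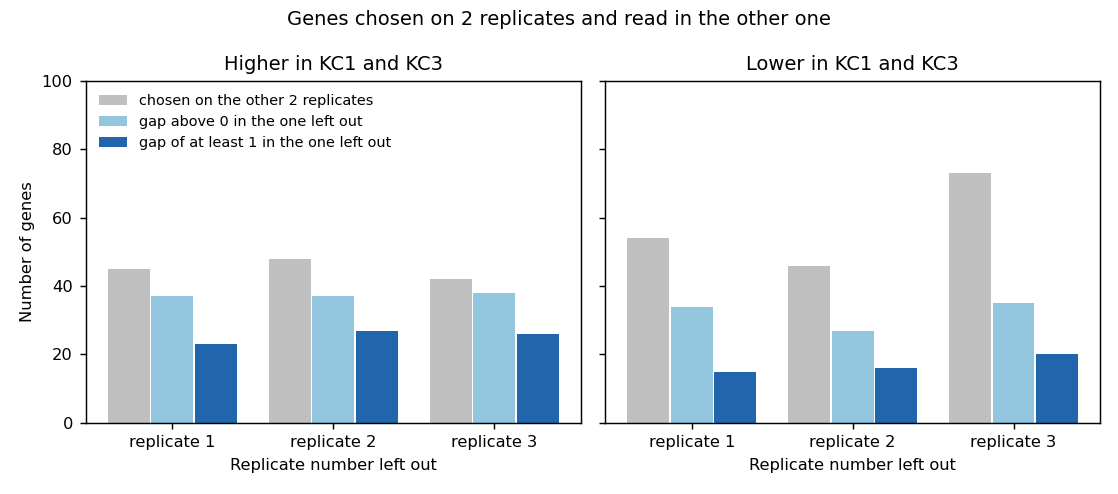
Number of genes chosen by the rule on 2 replicates (grey) and, of those, the number with a gap above 0 (light blue) and of at least 1 (dark blue) on the arrays of the replicate left out, by replicate number and direction. The dark bars reach 23 to 27 of 42 to 48 higher genes and 15 to 20 of 46 to 73 lower genes.

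Of the 41 higher members 21 had further probe sets, 29 in all. In the member's direction 9 had a gap of at least 1, 6 a smaller gap above 0 and 14 none. Of these 14, 5 had a line mean of 6 or more, and among the 5 those of Egr3 and Ptp4a3 had the sides in the opposite order. Of the 45 lower members 15 had 24 further probe sets, with 8, 9 and 7 in these classes. Bgn had gaps of 1.70 and 1.46 on its others, Sparc 1.33 and 0.09, and Fscn1 1.03, 0.67 and 0.75. These share the contrast of the rule and are given as description.

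Differences between lines on the same side were tested with limma, with a call at an adjusted p under 0.05 and a difference of at least 1. At a given difference between the side means, the gap shrinks as lines of the same side differ more. The rule thus bears on these differences in members, so their called shares are a description. Between KC1 and KC3, 1494 of all genes (8.21%) were called, 969 higher and 525 lower in KC1; with each array centred on its median these became 717 and 913. By direction that was 5.33% and 2.89% of all genes. Of the 41 higher members 7 were called (17.1%), 3 higher and 4 lower in KC1. Of the 45 lower members 11 were called (24.4%), 10 higher and 1 lower in KC1. Between KC2 and KC4, 1725 of all genes (9.48%) were called, 5.02% as higher and 4.46% as lower in KC2. Of the higher members 7 were called (17.1%), 2 higher and 5 lower in KC2, and of the lower members 1 (2.22%), lower in KC2. Neither comparison called 28 of the higher and 33 of the lower members.

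The 11 lower members called between KC1 and KC3 were higher in KC1 in 10 cases. Bgn differed by 5.14 ± 0.14 (SE; limma adjusted p = 3.19e-08), Sparc by 3.89 ± 0.05 (limma adjusted p = 4.44e-10) and Ampd3 by 3.48 ± 0.48 (limma adjusted p = 0.000419). Fscn1 (2.79), Tgfb3 (1.84), Ly6g2 (1.68), Mmp14 (1.63), Gsdmd (1.38), Cdc42ep2 (1.17) and Crip1 (1.07) had the same direction. Bmp2 was the exception, at -2.00 ± 0.08 (limma adjusted p = 2.09e-07). KC1 was thus between KC3 and the low-prolactin lines for these 10 genes. The calls of Ly6g2, Gsdmd and Tgfb3 were lost with a floor of 64, where their differences were 0.25, 0.55 and 0.36. Those of Crip1 and Cdc42ep2 were lost with median centring, at 0.87 and 0.96, that of Cdc42ep2 also with quantile normalization, at 0.95, and that of Gsdmd also without KC1 replicate 3 (limma adjusted p = 0.0583) or KC3 replicate 2 (limma adjusted p = 0.0556).

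Among the higher members, Ccl20 (-3.68 ± 0.51; limma adjusted p = 0.00041), Il23a (-1.48 ± 0.13; limma adjusted p = 2.82e-05), Lman1l (-1.19) and Nipal2 (-1.11) were lower in KC1 than in KC3. Fgf13 (2.04), Rps6ka6 (1.64) and Ptp4a3 (1.09) were higher in KC1. Between KC2 and KC4, Aqp8 was higher in KC2 by 3.59 ± 0.11 (limma adjusted p = 3.79e-08) and Dact2 by 1.73. Sh2d5 was lower in KC2 by -2.48 ± 0.22 (limma adjusted p = 2.34e-05), as were Ptp4a3 (-1.67), Pde4b (-1.28) and Ctsh (-1.08). The lower member called there was C430002N11Rik (-2.27 ± 0.54; limma adjusted p = 0.00863), where 2 KC2 arrays read 28.3 and 23.7 and the other 128. Ptp4a3 was the member called in both comparisons; as the mean of its probe sets it was called in neither, at 0.63 and -0.86, and with median centring its call between KC1 and KC3 was lost, at 0.89. The calls of Dact2 and Pde4b were lost with a floor of 64, at 0.12 and -0.84, and with the mean of all probe sets, at 0.54 and -0.70, as was that of Ctsh at -0.94.

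Prl differed by 1.89 ± 0.65 between KC1 and KC3 (limma adjusted p = 0.0519) and by -1.90 ± 0.65 between KC2 and KC4 (limma adjusted p = 0.0484). The KC1 and KC3 arrays were tight, with SDs of 0.04 and 0.05 log2, while KC2, whose 3 arrays read 192, 20.2 and 71.4, had an SD of 1.63 that enters the shared error of both comparisons. The KC2 and KC4 call was lost without any 1 array except KC2 replicate 1, and without KC2 replicate 2 the difference was -1.06 (limma adjusted p = 0.0634). With the replicate number as a block the adjusted p was 0.0651.

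**Figure D4:**
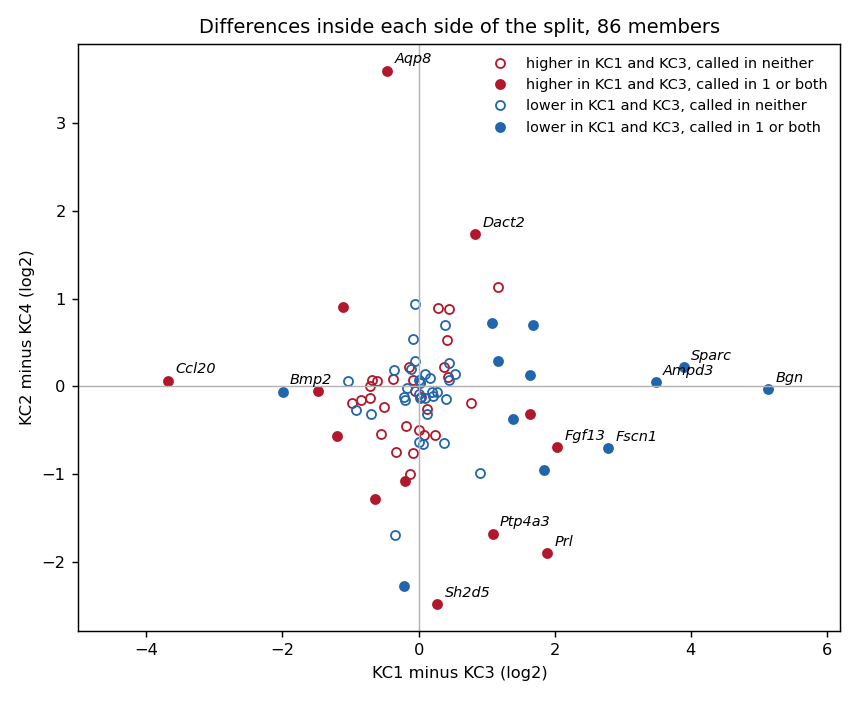
Log2 difference KC1 minus KC3 against KC2 minus KC4 for the 86 members; filled symbols were called by limma in 1 or both comparisons and open ones in neither. Bgn, Sparc, Ampd3 and Fscn1 extend to the right, Ccl20 to the left and Aqp8 upwards, while 61 open symbols gather near the centre.

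Across 48 gene lists, 16 members appeared on 10 lists. Of the lists without a member, 4 with uneven counts of genes with a gap above 0 are given here. They were chosen from the 48 after their values were seen, and no test was made. They are not all such lists. Among CDK inhibitors and p53 targets, 9 of 25 genes measured had a gap above 0 in the higher and 2 in the lower direction. The counts stand beside 10.4% of all genes in the higher and 17.4% in the lower direction. In the amino acid and ER stress list, 10 of 30 genes (33.3%) had a gap above 0 in the higher and 0 in the lower direction, and the median difference between the sides was 0.59; its line medians were 11.18, 12.09, 9.63 and 11.54 in KC1, KC3, KC2 and KC4, so KC4 lay above KC1. Ddit3, a factor of the stress response, had a gap of 0.54 and Ddit4, an inhibitor of mTORC1, one of 0.38. In the cholesterol and fatty acid list 13 of 27 genes (48.1%) had a gap above 0 in the lower and 0 in the higher direction, with line medians of 10.82, 9.83, 11.19 and 11.24, the lowest in KC3. In the DNA replication and mitosis list this held for 14 of 37 genes (37.8%), with line medians of 11.44, 10.75, 11.45 and 11.49 and again 0 in the higher direction. KC3 had the lowest median in both lists. Of 32 interferon-stimulated genes measured, 11 had a gap above 0 in the lower and 1 in the higher direction.

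Members were spread over the genome. No 2 of them were next to each other among measured genes in the same direction. Prl and 1700092E19Rik on chromosome 13 had 1 measured gene between them and Hpcal4 and Bmp8a on chromosome 4 had 2, each pair in opposite directions. Chromosome 15 held 8 members of 724 genes (1.10%), 2 higher and 6 lower, and chromosome 16 none of 593, beside 0.473% of all genes. Promoter windows were found for 30 higher and 32 lower members. The TATA box was in 17.5% of the higher and 13.5% of the lower members' windows and the POU1F1 motif in 12.5% and 5.41%. The CACCTG motif of Snail factors was in 20.0% and 16.2% (17.2% of all windows) and the AP-1 motif TGANTCA in 7.50% and 0 (6.75% of all windows). With 40 and 37 windows, 1 window is worth more than 2 percentage points, and a match is a description of letters only.

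At the threshold, Lor and Rps6ka6 (both 1.00) were the higher members with the smallest gap, and Apobec1 (0.98) and Gm8350 (0.97) fell just outside. On the lower side Kctd8 (1.01) and 4930404N11Rik (1.02) were just inside, and Gpr27 (0.99) and Itgb6, whose gap rounds to 1.00, just outside. Among 10092 probe sets with several symbols or none, 6 passed the rule as higher and 7 as lower, with a largest gap of 2.39. For comparison, the same rule applied to KC2 and KC3 against KC1 and KC4 gave 140 genes, 32 higher and 108 lower. In 20 alternative settings of the member rule, 14 of the 86 were present with a gap of at least 1 throughout: Prl, Il23a, Hpcal4, Igfbp3, Psrc1, Ppp1r26 and Ctsh among the higher, and Praf2, Mmp14, Flnc, Aqp5, Bmp2, Id1 and Crip1 among the lower. The setting limited to the brighter genes leaves dim genes out whatever their gap, and such genes count as not kept. The other members therefore need not have fallen under a gap of 1 in any setting.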

How the data were processed

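Per the labels, total RNA of 4 cell lines was hybridised to biotin-labelled arrays, 3 per line. The authors deposited 1 linear intensity per probe set and array; its software and background correction were not given in the sources used here. The mean of each array after trimming 2% at each end was 500.002 to 500.003, so arrays had been scaled to 1 target, and a change in total mRNA would not be seen. Of 45101 probe sets, 64 controls were left out; in the platform annotation 34945 had 1 gene symbol, 932 several and 9160 none, and 34741 of the first matched the RefSeq gene table (GRCm38.p6). Intensities under 16 were set to 16, log2 values were taken and the probe set brightest over all arrays stood for a gene, which left 18193 genes, 659 of them at the floor on all arrays. Detection calls, scanner files and scan batches were not used here. The number of arrays limits the precision.

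The gap is the lower line mean of one side minus the higher line mean of the other. Lines on the same side were compared with limma 3.58.1 (R 4.3.3), 1 coefficient per line over all 12 arrays, eBayes, Benjamini-Hochberg adjustment over all genes. On simulated data of 18193 genes for KC1 minus KC3 it recovered 90%, 96%, 96% and 100% of genes changed by 1.5, 2, 3 and 4 log2, with 9 false calls. The changed genes all had a mean above 6 log2, and each gene had 1 spread for all lines. These shares therefore do not cover dimmer genes or genes whose spread differs between lines. Genes named are the 15 members with the largest gap in each direction, up to 4 members per list, the prolactin family, the 2 genes on either side of the threshold, the 3 largest calls inside each side and Cdkn1a; other members are named so that all 86 are accounted for. Members and lists were chosen with earlier results of these data known. Alternatives are other floors, probe set rules, scalings, gap sizes, a replicate block and leaving out single arrays. Promoters are the 250 bases before RefSeq starts. Figures were drawn with matplotlib 3.10.9.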

Additional observations from a re-analysis of the deposited data

How the results depend on the processing

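The 41 higher and 45 lower members became 19 and 13 with only the brighter 50% of genes, 9 and 3 with a gap of at least 2, 169 and 300 with a gap of at least 0.5, and 16 and 9 when every single array had to lie 1 log2 unit beyond those of the other side. A floor of 64 left 21 lower members and a pseudocount of 16 left 28. With a floor of 64 all signals under 64 become equal, which by construction can shrink the gap of dim genes. On the brighter side, 13 of the 45 lower and 5 of the 41 higher members had a line mean under 6 log2. How much of the drop follows from this was not tested. Without 1 array the numbers ran from 38 to 44 and from 40 to 56. Single arrays of the sides overlapped in 4 higher and 16 lower members; read between single arrays, of the members named by rule the gaps of Slc26a4 (-0.76), Cxcl17 (-0.36), C430002N11Rik (-0.066), 4930404N11Rik (-0.58) and Kctd8 (-0.069) turned sign.

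The share of higher genes with a gap of at least 1 on left-out arrays, 56.3%, was 73.9% with a floor of 64, 64.1% with a pseudocount of 16, 48.6% with median centring and 74.6% with the brighter 50%. For lower genes, 29.5%, it was 64.1%, 44.1%, 37.0% with the mean of all probe sets, 35.6% with quantile normalization and 73.7% with the brighter 50%.

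Genes called between KC1 and KC3 numbered 856 with the brighter 50% of genes and 375 with a minimum difference of 2, and between KC2 and KC4 1050 and 486, where fewer genes can pass. Without 1 array the ranges were 1414 to 1571 and 1690 to 1753. Higher members called between KC1 and KC3 became 4 with the brighter 50% and 2 with a minimum difference of 2 (7 to 9 without 1 array), and between KC2 and KC4 2 with a minimum difference of 2 and 2 with the mean of all probe sets (6 to 9 without 1 array). Lower members called between KC1 and KC3 became 7 and 4 (10 to 13 without 1 array). The 1 lower member called between KC2 and KC4 became 0 with the brighter 50% and 2 with a pseudocount of 16, quantile normalization, median centring, and eBayes with trend and robust (1 to 2 without 1 array; 2 without KC2 replicate 1, KC2 replicate 3 or KC4 replicate 2). Median centring moved the median of all genes in KC1 minus KC3 by -0.13.

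No shared deviation was seen between arrays with the same replicate number. Correlations of their deviations ran from -0.13 to 0.10 over 18 pairs, and from -0.15 to 0.15 over 36 pairs with different numbers. Whether arrays with the same number were handled together cannot be told from these correlations. With the replicate block 1464 and 1708 genes were called, and 7, 6, 11 and 1 members in the order above; among members the call of Prl between KC2 and KC4 was lost.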
